A study of Homo sapiens with 6 samples.

Results

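The proteasome genes measured here were the protein-coding genes whose symbols start with PSMA, PSMB, PSMC, PSMD, PSME, PSMF or PSMG followed by a number, without the interferon-inducible genes PSMB8, PSMB9, PSMB10 and PSME2. The rule used names and no measured value. It gave 45 of the 58174 genes in the files, and 43 of them entered the test, which held 16321 genes. PSMC3IP matched by its name but encodes a cofactor of meiotic recombination enzymes and no proteasome subunit. SiHa, an established line of cervical squamous carcinoma cells, had received the plasmid GV230-BRCA1 (OV-BRCA1 group, 3 samples) or the empty GV230 vector (NC group, 3 samples), and mRNA was sequenced 48 h later. Both groups went through the same lipid-based transfection, so the plasmid acted for a limited time in whatever share of the cells took it up. The comparison asks which transcripts differ in amount when BRCA1 is overexpressed.

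The proteasome is the barrel-shaped protease that degrades proteins marked with ubiquitin. Its core particle has outer rings of alpha subunits, which gate the entrance, and inner rings of beta subunits, some of which cut the chain. The regulatory particle on top consists of a base, whose ATPases unfold the substrate and push it into the core, and a lid, which removes the ubiquitin. Interferon replaces the catalytic beta subunits with inducible counterparts and raises an alternative cap, and the resulting immunoproteasome supplies peptides for HLA class I presentation. When proteasome activity is short, the transcription factor NFE2L1 raises many subunit genes together.

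The values are FPKM, fragments per kilobase of transcript and 1000000 mapped fragments, as deposited by the authors for each transcript, and they were summed per gene. A fold change is the difference of the group means of log2(FPKM + 1), OV-BRCA1 minus NC, with its standard error (SE). A gene was called higher or lower when the Benjamini-Hochberg adjusted p-value of limma's moderated test over all 16321 genes was below 0.05. The p-values measure the spread between these samples of 1 cell line. The files hold no counts and the number of fragments behind a value could not be recovered from them, so no counting error is given. In such bulk RNA, fewer cells with a transcript and less of it per cell cannot be told apart.

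BRCA1 itself was at 35.7, 40.8 and 34.9 FPKM in the OV-BRCA1 group and at 20.1, 14.9 and 21.7 in NC, given for samples 1, 2 and 3 in that order here and below, which gave 0.95 as the log2 fold change (SE 0.14, adjusted p = 0.00373). For GAPDH the log2 fold change was 0.03 (adjusted p = 0.586). Transcripts of the mitochondrial genome held 14.8% to 17.3% of the summed FPKM in OV-BRCA1 and 21.0% to 23.2% in NC, and FPKM are shares of the sample. With each sample scaled by its summed FPKM of nuclear protein-coding genes, the numbers of proteasome genes called higher and lower, given below as 11 and 3, were 8 and 3, beside 14.5% and 21.3% of all genes under that scaling. Of 10 markers of squamous epithelial cells, 5 had a mean of at least 1 FPKM (KRT8, KRT17, KRT18, EPCAM and SFN), while KRT5, KRT14, KRT19, CDH1 and TP63 were below it, and the summed level was 1716 to 1861 FPKM in OV-BRCA1 and 2066 to 2111 in NC. Of 8 leukocyte markers, CD14 and CD68 reached this level, PTPRC was listed at 0 in every sample, and the sum was 31.9 to 37.6 against 23.4 to 24.7 FPKM. None of 6 endothelial markers reached 1 FPKM, with VWF and KDR at 0 and sums of 0.832 to 1.48 against 0.717 to 0.833. Of 8 fibroblast markers FAP did, with LUM and POSTN at 0 and sums of 2.54 to 2.67 against 1.59 to 2.16. The part of these differences in the proteasome values was not tested.

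The constitutive proteasome genes moved little and in both directions. Of the 43 tested genes, 11 (25.6%) were called higher in OV-BRCA1, beside 16.4% of all genes tested, and 3 (6.98%) were called lower, beside 18.9% of all genes. The genes called higher were PSMA4, PSMA5, PSMB7, PSMD5, PSMD7, PSMD8, PSMD11, PSMD12, PSME1, PSME3 and PSMG4, and those called lower were PSMB4, PSMB6 and PSMC3. No proteasome gene passed the further criterion of the study, an absolute log2 fold change above 1, which 3.99% of all genes met. The median log2 fold change was 0.14 and 28 of 43 values were positive, beside a median of -0.04 and 46.2% of values above 0 over all genes. The median size of the change, whatever its sign, was 0.183 in the proteasome genes and 0.256 over all genes. FPKM did not overlap between the groups in 22 of the 43 genes (51.2%), beside 50.8% of all genes, so the share of genes with separate groups was that of the background.

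**Figure D1:**
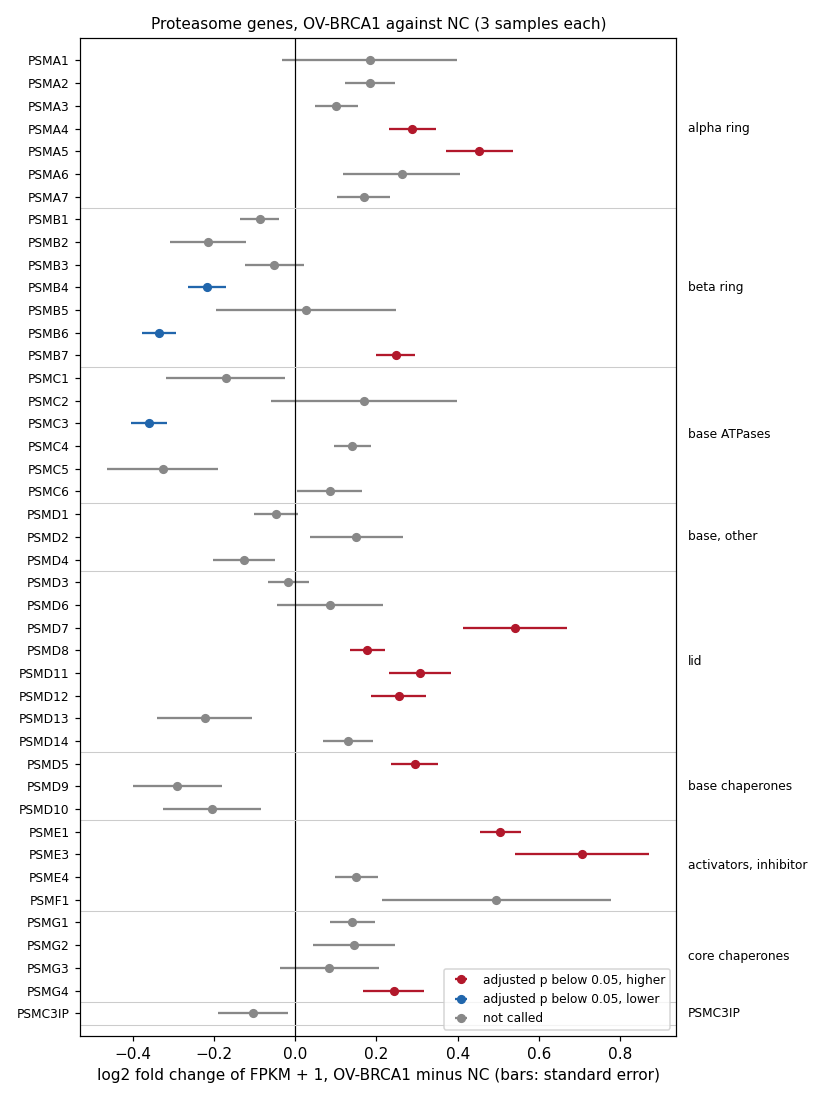
Log2 fold change of FPKM + 1 (OV-BRCA1 minus NC, horizontal axis) of the 43 tested proteasome genes, ordered by their place in the particle. Points are fitted values from 3 samples per group, bars are standard errors, and colour marks the call. The values run from -0.36 (PSMC3) to 0.71 (PSME3), with 11 genes called higher and 3 called lower.

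Of the 7 tested subunits of the alpha ring, PSMA5 and PSMA4 rose (28.6%, beside 16.4% of all genes called higher) and 5 did not pass the test. The 7 values lay between 0.10 and 0.45. PSMA5 (chr1:109399031-109426427 in GRCh38) was at 68.7, 64.9 and 62.8 FPKM in OV-BRCA1 and at 52.6, 47.4 and 43.0 in NC. Each OV-BRCA1 sample was above each NC sample, and the log2 fold change was 0.45 (SE 0.08, adjusted p = 0.00738). Only 21.3% of the PSMA5 signal lay in transcripts annotated as protein coding, the lowest share of any tested proteasome gene, and the transcript with most of it, PSMA5-204, is annotated as a processed transcript. PSMA4 (chr15:78540405-78552419) was at 192, 181 and 204 FPKM against 151, 159 and 161, again without overlap (log2 fold change 0.29, SE 0.06, adjusted p = 0.0105).

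The other alpha genes did not pass the test. PSMA7, the most abundant gene of the set, was at 302, 276 and 281 FPKM in OV-BRCA1 and 244, 244 and 276 in NC (log2 fold change 0.17, adjusted p = 0.0902). Its groups came within less than 1 FPKM of each other, and without NC sample 3 the adjusted p was 0.0375. PSMA2 was at 67.7, 63.3 and 64.5 against 55.3, 55.0 and 61.5 FPKM (0.18, adjusted p = 0.0597), and without NC sample 3 its adjusted p was 0.0327. PSMA1 had the largest p of the ring (adjusted p = 0.547). Its 107 FPKM in OV-BRCA1 sample 1 stood above the 59.0 and 65.7 of samples 2 and 3 and the 66.5, 68.5 and 62.2 of NC, and without that sample the log2 fold change turned from 0.18 to -0.08. PSMA3 and PSMA6 had values of 0.10 and 0.26 with overlapping groups. PSMA8, the testis counterpart of PSMA7, was listed at 0 in all 6 samples and could not be tested.

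Of the 7 tested genes of the beta ring, 2 fell (28.6%, beside 18.9% of all genes), 1 rose (14.3%, beside 16.4%) and 4 did not pass the test. Whether the beta ring differed from the alpha ring was not tested. PSMB6, which carries the caspase-like site, was at 58.3, 56.9 and 56.0 FPKM in OV-BRCA1 and at 71.9, 72.8 and 71.8 in NC. The 3 NC samples lay within about 1 FPKM of each other and well above the OV-BRCA1 samples, and the fall was 0.33 on the log2 scale (log2 fold change -0.33, SE 0.04, adjusted p = 0.00185). PSMB7, which carries the trypsin-like site, rose from 138, 140 and 144 FPKM in NC to 175, 161 and 165 in OV-BRCA1 (log2 fold change 0.25, SE 0.05, adjusted p = 0.00962). PSMB5, which carries the chymotrypsin-like site, was at 71.4, 51.4 and 37.7 FPKM against 50.3, 56.5 and 46.1. Its OV-BRCA1 samples lay on both sides of the NC samples, and the log2 fold change of 0.03 had an SE of 0.22 (adjusted p = 0.938). Of the 3 catalytic genes, 1 was thus called lower, 1 was called higher and 1 was not called.

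Of the beta subunits without a catalytic site, PSMB4 fell. It was at 165, 153 and 161 FPKM in OV-BRCA1 and 191, 186 and 180 in NC (log2 fold change -0.22, SE 0.05, adjusted p = 0.0143), without overlap. PSMB2 was at 47.4, 59.8 and 48.2 against 58.6, 61.0 and 60.2 FPKM. OV-BRCA1 sample 2 reached the NC level while samples 1 and 3 stayed below it (-0.21, adjusted p = 0.126), and without sample 2 the log2 fold change was -0.32 with an adjusted p of 0.0102. PSMB1 and PSMB3 had values of -0.09 and -0.05 and were not called. PSMB11, the thymus-specific catalytic subunit, was listed at 0 in 5 samples and at 0.0304 FPKM in NC sample 1, and it was not tested.

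**Figure D2:**
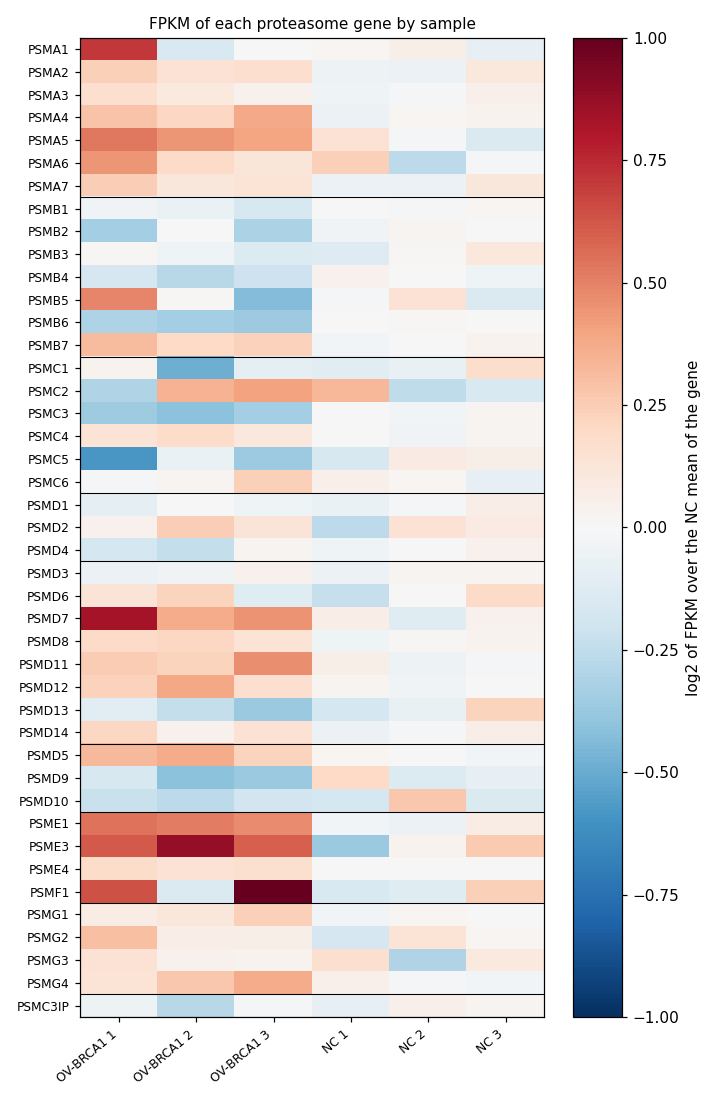
FPKM of each tested proteasome gene in each of the 6 samples, as log2 of its ratio to the mean of the 3 NC samples (colour, red above and blue below). Columns are samples, rows are genes in the order of the particle, and lines separate the groups of subunits. PSMB6 and PSMC3 are blue and PSME1 is red in all 3 OV-BRCA1 samples, whereas PSMA1, PSMB5 and PSMF1 differ between the OV-BRCA1 samples.

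Among the 6 ATPases of the base, which form the unfolding ring, 3 values were positive and 3 negative. Of these genes 1 fell (16.7%, beside 18.9% of all genes). PSMC3 (chr11:47418769-47426473) was at 55.7, 53.8 and 56.4 FPKM in OV-BRCA1 and at 71.2, 70.1 and 72.5 in NC. The groups were far apart for their spread (log2 fold change -0.36, SE 0.04, adjusted p = 0.00166), and this was the lowest value of the set. PSMC4 pointed the other way, with 87.7, 91.0 and 86.2 against 80.1, 78.1 and 81.6 FPKM (0.14, adjusted p = 0.0512). PSMC5 was at 36.2, 51.7 and 42.2 against 48.6, 57.5 and 56.5 FPKM (-0.33, adjusted p = 0.111), with OV-BRCA1 sample 2 inside the NC range, and without that sample the adjusted p was 0.0311. PSMC1 was at 36.1, 25.1 and 32.8 against 32.5, 33.3 and 39.6 FPKM (-0.17, adjusted p = 0.404), and PSMC6 had a value of 0.08. PSMC2 had the largest p of the ring (0.17, SE 0.23, adjusted p = 0.603). It was at 44.3, 69.6 and 72.0 FPKM in OV-BRCA1 and at 68.8, 45.8 and 49.1 in NC, so that each group held low and high samples.

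The other base subunits gave no call. PSMD4, a ubiquitin receptor, was at 65.3, 62.4 and 75.1 FPKM in OV-BRCA1 and 71.4, 73.7 and 76.1 in NC (-0.13, adjusted p = 0.248), and without OV-BRCA1 sample 3 the adjusted p was 0.0486. PSMD2, a scaffold subunit, was at 82.6, 95.0 and 87.8 against 67.0, 88.7 and 84.6 FPKM (0.15, adjusted p = 0.354). PSMD1, the other large scaffold subunit, was at 54.4, 57.8 and 56.4 against 55.6, 57.8 and 61.0 FPKM (-0.05, adjusted p = 0.533). The groups overlapped in all 3 genes.

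In the lid 4 of 8 genes named by the rule were called higher, beside 16.4% of all genes, and 0 were called lower. PSMD7, the inactive partner of the deubiquitinase PSMD14, was at 61.7, 44.7 and 47.3 FPKM in OV-BRCA1 and at 36.2, 31.9 and 35.7 in NC. All OV-BRCA1 samples were above NC, with sample 1 far above the others (log2 fold change 0.54, SE 0.13, adjusted p = 0.0195). PSMD11, a scaffold subunit of the lid, was at 37.7, 36.8 and 43.5 against 32.9, 30.4 and 31.3 FPKM (0.31, SE 0.08, adjusted p = 0.0238). PSMD12, also a scaffold subunit, was at 36.2, 40.2 and 34.6 against 31.4, 30.1 and 31.0 FPKM (0.25, SE 0.07, adjusted p = 0.0292). PSMD8 was at 158, 160 and 153 against 135, 140 and 142 FPKM (0.18, SE 0.04, adjusted p = 0.0220). The groups did not overlap in these 4 genes and overlapped in the other lid genes. No overlap in 4 of 8 genes was near the share of all genes, 50.8%. PSMD14 itself, which cuts ubiquitin off the substrate, had a value of 0.13 and was not called, PSMD6 had 0.09 and PSMD13 -0.22, and PSMD3 had the largest p, with 72.9, 73.9 and 78.3 against 73.1, 77.4 and 77.2 FPKM (-0.02, adjusted p = 0.820).

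Each of the 4 lid calls was lost when certain samples were left out, a setting in which 12.9% to 13.6% of all genes were called higher in place of 16.4%. PSMD7 had an adjusted p of 0.0609 without NC sample 2 (log2 fold change 0.48). PSMD11 had 0.0722 without NC sample 2 and 0.0672 without NC sample 3. PSMD8 had 0.0680 and 0.0550 without NC samples 1 and 2 and 0.0576 and 0.0629 without OV-BRCA1 samples 1 and 2. PSMD12 had 0.0631, 0.0838 and 0.0725 without NC samples 1, 2 and 3, and 0.0596 and 0.0591 without OV-BRCA1 samples 1 and 2. The log2 fold changes in these cases stayed near the full values, at 0.28 and 0.30 for PSMD11, 0.15 to 0.18 for PSMD8 and 0.19 to 0.27 for PSMD12. By contrast PSMA4, PSMA5, PSMB4, PSMB6, PSMB7, PSMC3, PSMD5 and PSME1 were called whichever sample was left out.

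Of the chaperones that assemble the base, PSMD5 rose and the other two had negative values. PSMD5 was at 28.0, 28.97 and 26.2 FPKM in OV-BRCA1 and at 22.7, 22.5 and 22.1 in NC (log2 fold change 0.29, SE 0.06, adjusted p = 0.00993), with no overlap. PSMD9 was at 15.6, 13.0 and 13.4 against 19.9, 15.8 and 16.4 FPKM (-0.29, adjusted p = 0.0862). PSMD10, also known as gankyrin, was at 28.3, 27.6 and 28.9 against 29.2, 39.9 and 29.95 FPKM (-0.20, adjusted p = 0.236). Its OV-BRCA1 samples were all just below NC samples 1 and 3, and NC sample 2 stood apart above the rest.

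Of the chaperones that assemble the core, all 4 had positive values and PSMG4 was called higher. It was at 16.4, 17.9 and 19.3 FPKM in OV-BRCA1 and 15.4, 14.7 and 14.6 in NC (log2 fold change 0.24, SE 0.07, adjusted p = 0.0469). The call was lost without NC samples 1, 2 or 3 (adjusted p = 0.0795, 0.114 and 0.119) and without OV-BRCA1 samples 2 or 3 (0.108 and 0.113), with log2 fold changes of 0.19 to 0.27. PSMG1, the partner of PSMG2 in building the alpha ring, was at 118, 121 and 132 against 110, 114 and 112 FPKM (0.14, adjusted p = 0.0937). PSMG2 was at 65.6, 55.7 and 55.2 against 47.3, 58.3 and 53.7 FPKM (0.15, adjusted p = 0.307). PSMG3, the partner of PSMG4, was at 29.2, 27.3 and 27.1 against 29.6, 21.5 and 28.2 FPKM (0.08, adjusted p = 0.628), and its groups overlapped as those of PSMG2 did. PSMC3IP, the gene matched only by name, was at 16.4, 13.9 and 16.8 against 15.97, 17.5 and 17.3 FPKM (-0.10, adjusted p = 0.390).

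The activators held the largest change of the set. PSME1, a subunit of the interferon-inducible cap that it forms with PSME2, was at 142, 139 and 136 FPKM in OV-BRCA1 and at 96.2, 94.0 and 103 in NC. The groups were widely separated, and with a log2 fold change of 0.51 (SE 0.05) PSME1 had the smallest adjusted p of the set (8.05e-04). PSME1 (chr14:24136158-24138967) overlaps EMC9 on the opposite strand, and the use of strand in the quantification is not given in the sources used here. PSME3, which forms a nuclear cap of its own that works without ubiquitin, had the largest value. It was at 68.5, 82.1 and 67.6 FPKM against 34.6, 45.9 and 53.7 (log2 fold change 0.71, SE 0.17, adjusted p = 0.0192), and without OV-BRCA1 sample 2 the adjusted p was 0.0591. PSME3 overlaps BECN1 on the opposite strand, and PSMD5, PSMD7 and PSMG4 among the other genes called higher also overlap an opposite-strand gene with a mean of at least 1 FPKM.

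PSME4, a large cap linked to histone degradation, had tight groups, at 14.1, 13.8 and 13.9 FPKM in OV-BRCA1 and 12.4, 12.5 and 12.4 in NC. They did not overlap, but the change was small and was not called (0.15, SE 0.05, adjusted p = 0.0709). PSMF1, an inhibitor of the core, was at 27.2, 15.9 and 35.8 against 15.8, 16.2 and 20.6 FPKM (0.50, SE 0.28, adjusted p = 0.222). Samples 1 and 3 of OV-BRCA1 were above every NC sample and sample 2 was at the lower end of NC, and the log2 fold change was 0.81 without sample 2 (adjusted p = 0.0217) but 0.24 without sample 3 (adjusted p = 0.498).

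The inducible genes left out by the rule give a measure of how far the catalytic genes and PSME1 shifted relative to them. PSME2 forms a cap with PSME1 and does not replace it. PSMB9 rose from 13.6, 11.5 and 12.5 FPKM in NC to 50.6, 49.9 and 50.9 in OV-BRCA1 (log2 fold change 1.93, adjusted p = 1.3e-05). PSMB8 rose from 21.9, 20.2 and 22.3 to 59.3, 52.7 and 52.1 FPKM (1.31), PSMB10 from 18.4, 17.7 and 17.6 to 35.2, 31.3 and 28.3 (0.78) and PSME2 from 84.8, 85.5 and 88.3 to 148, 129 and 138 (0.67). All 4 were without overlap between the groups, beside 50.8% of all genes. PSMB8 and PSMB9 overlap each other and further expressed genes on opposite strands, and PSME2 overlaps RNF31, so that without strand their fragments and those of the partner cannot be told apart. PSMB9 thus stood at 86.8%, 87.8% and 90.9% of the FPKM of PSMB6, the subunit it replaces, in OV-BRCA1, and at 18.9%, 15.8% and 17.3% in NC, a 5.12-fold difference between group means of the log2 ratio, in which PSMB6 was called lower and PSMB9 higher. PSMB8 stood at 83.0%, 103% and 138% of PSMB5 against 43.5%, 35.8% and 48.4%, a 2.50-fold difference whose spread in OV-BRCA1 came with the spread of PSMB5.

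The remaining pairs had smaller differences in summed FPKM. PSMB10 stood at 20.1%, 19.4% and 17.2% of PSMB7 against 13.4%, 12.7% and 12.2%, a 1.48-fold difference, with PSMB7 itself higher in OV-BRCA1. PSME2 stood at 104%, 92.5% and 102% of PSME1 against 88.1%, 91.0% and 85.6%, a 1.12-fold difference, since both genes of the cap rose. With the most abundant transcript of each gene the log2 difference of the PSME2/PSME1 ratio was 0.47 in place of 0.17 and that of PSMB10/PSMB7 was 0.38 in place of 0.56, so the order of these pairs turned. No pair overlapped between the groups, and each of the 4 ratios had p = 0.1 in an exact two-sided permutation test (0.1 after Benjamini-Hochberg adjustment), the smallest p that 3 against 3 samples allow. In OV-BRCA1 PSMB8 was below PSMB5 in sample 1, close to it in sample 2 and above it in sample 3, where PSMB5 was lowest, and PSMB9 stayed below PSMB6 and PSMB10 far below PSMB7 in every sample.

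**Figure D3:**
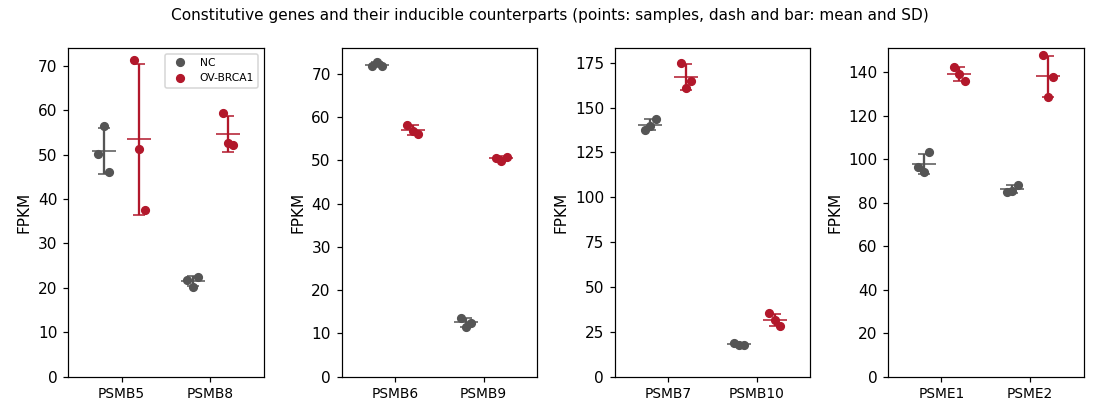
FPKM (vertical axis from 0, a separate scale in each panel) in NC (grey) and OV-BRCA1 (red). The catalytic genes PSMB5, PSMB6 and PSMB7 are beside their inducible counterparts, and PSME1 is beside PSME2, its partner in the cap. Points are samples, and the dash and bar give mean and SD of 3 samples. PSMB6 is lower and PSMB9 higher in every OV-BRCA1 sample than in every NC sample, and PSMB5 spreads from 37.7 to 71.4 FPKM in OV-BRCA1.

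The promoters of these genes were searched for the letters that interferon-regulated and NFE2L1-type factors are known to bind, since some members moved with the inducible genes. The windows, from RefSeq on GRCh38.p14, run from 250 bases before to 50 bases after an annotated start. Some genes, such as PSMA4, have several starts, which need not be the gene's first base in GENCODE, and 39 of the 45 genes had at least 1 window. PSMA7, PSMB1, PSMB6, PSMB7, PSMD4 and PSMG3 had no window and were not searched. The core of the interferon-stimulated response element, GAAA, any 2 bases and GAAA again on either strand, was present in 4 of the 39 genes (10.3%), PSMA4, PSMB4, PSME1 and PSMG4, and in 4.38% of 27305 gene symbols. The symbols were not matched to the proteasome genes in gene type or number of windows, and the difference in share was not tested. Of these 4 genes, 3 were called higher, beside 16.4% of all genes, and PSMB4 was called lower, beside 18.9%. The matches are shown with neighbouring bases, 5′ to 3′ on the strand of the gene and with the match in capitals, beside those of the 3 inducible genes that have one (the window of PSMB9, the inducible gene with the largest rise, has none), so that the near-identical letters of PSME1, PSMG4, PSMB8, PSMB10 and PSME2 and the different ones of PSMA4 and PSMB4 can be seen.
PSME1 (chr14:24136189-24136218, plus strand): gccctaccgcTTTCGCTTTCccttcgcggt
PSMG4 (chr6:3258904-3258933, plus strand): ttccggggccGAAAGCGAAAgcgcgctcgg
PSMA4 (chr15:78540155-78540184, plus strand): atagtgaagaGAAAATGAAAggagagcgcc
PSMB4 (chr1:151399495-151399524, plus strand): tcgtctacagGAAAAAGAAAgaaatgacac
PSMB8 (chr6:32844032-32844061, minus strand): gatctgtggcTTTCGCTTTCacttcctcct
PSMB10 (chr16:67936852-67936881, minus strand): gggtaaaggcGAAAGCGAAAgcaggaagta
PSME2 (chr14:24146619-24146648, minus strand): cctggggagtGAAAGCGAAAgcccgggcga

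In PSME1, PSMG4, PSMB8, PSMB10 and PSME2 the match read GAAAGCGAAA on one strand or the other, and it began within 33 bases of a RefSeq start. The core of the antioxidant response element, which NFE2L1 shares with related factors, was searched as TGACNNNGC on either strand. It was present in 13 of the 39 genes (33.3%) and in 16.1% of gene symbols, again without matching or a test. Of the 13, PSMA4, PSMD5, PSMD12 and PSME1 were called higher, and PSMB3, PSMC4, PSMC5, PSMD1, PSMD3, PSMD9, PSME4, PSMG1 and PSMG2 were not called. Over all genes 16.4% were called higher and 18.9% lower, and a relation of either motif to the calls was not tested. Of the inducible genes, PSMB9 and PSME2 held it. The matches of the 4 genes called higher were as follows, in the same layout.
PSMA4 (chr15:78540650-78540679, plus strand): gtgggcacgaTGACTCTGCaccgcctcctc
PSMD5 (chr9:120843037-120843066, minus strand): tggctacagtTGACACGGCcctaacggagg
PSMD12 (chr17:67366723-67366752, minus strand): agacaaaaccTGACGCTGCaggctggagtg
PSME1 (chr14:24136098-24136127, plus strand): atggcagggcTGACCCCGCctcctccatcc
A match is a run of letters and not a measured binding site.

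Several values above depend on how the fragments of a gene were divided among its transcripts, because FPKM divides by transcript length. PSMC2 shows this most plainly. Its longer transcript PSMC2-201 (2637 bases) was at 27.9 FPKM in OV-BRCA1 sample 1 and at 28.2 and 32.2 in NC samples 2 and 3, where the shorter PSMC2-206 (1357 bases) was at 1.71, 2.37 and 2.77. In OV-BRCA1 samples 2 and 3 and NC sample 1 the order was turned, with 13.7, 9.32 and 8.68 FPKM of PSMC2-201 and 42.9, 49.0 and 51.8 of PSMC2-206. The same samples were those with high gene FPKM. When each transcript's FPKM was multiplied by its length in kilobases and summed, which gives fragments per 1000000 mapped fragments (FPM), PSMC2 was at 108, 104 and 101 in OV-BRCA1 and 99.1, 103 and 103 in NC, with a log2 fold change of 0.03 (adjusted p = 0.528). The wide spread of PSMC2 in FPKM was thus absent on this scale.

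PSME3 behaved in the opposite way. Its main transcript PSME3-201 (3144 bases) was at 54.8, 57.5 and 54.5 FPKM in OV-BRCA1 and at 39.3 and 37.98 in NC samples 2 and 3, but at 0.674 in NC sample 1, where a retained-intron transcript of 537 bases held 14.8. In FPM PSME3 was at 183, 202 and 182 against 35.0, 131 and 133. All OV-BRCA1 samples stayed above all NC samples, but with NC sample 1 so far from the others the log2 fold change of 1.14 was not called (adjusted p = 0.124).

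**Figure D4:**
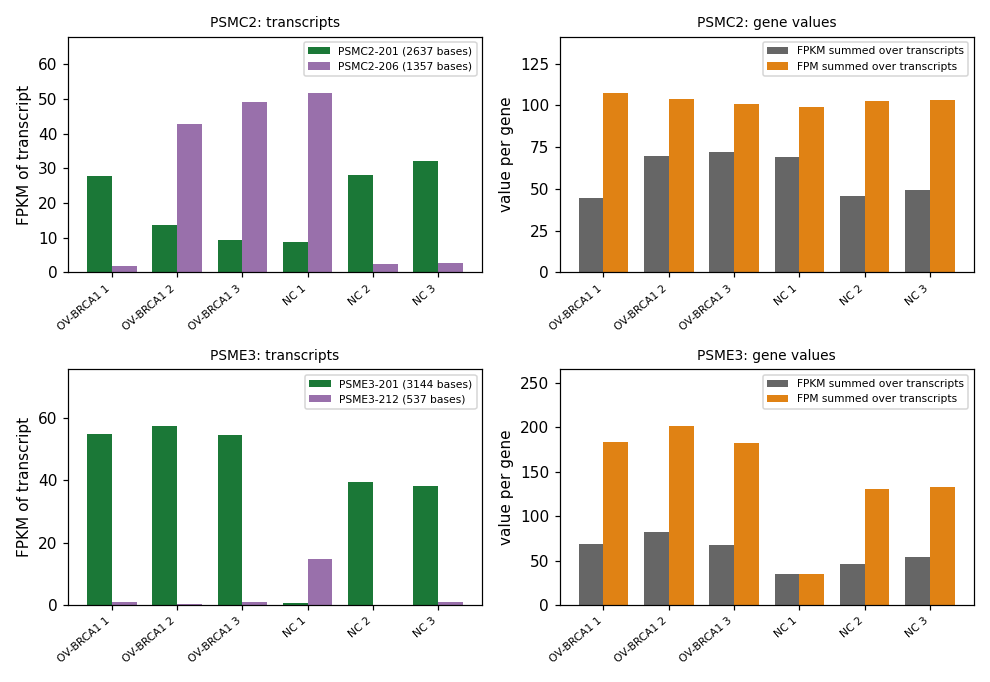
FPKM of the 2 compared transcripts of PSMC2 and PSME3 in each sample (left, bars) and the gene's value as summed FPKM or as FPM (right, bars). PSMC2 holds 99.1 to 108 FPM in all 6 samples while its transcripts trade places, and PSME3 falls to 35.0 in NC sample 1.

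On the FPM scale, chosen after the values had been seen, 14 of the 43 genes were called higher, beside 19.5% of all genes, and 4 were called lower, beside 22.1%. Called in the same direction on both scales were 8 genes higher and 3 lower. PSME3, PSMD12 (0.13, adjusted p = 0.109) and PSMG4 (0.23, adjusted p = 0.0603) were called in FPKM alone. Called in FPM alone were PSMA7 (0.25, adjusted p = 0.00720), PSMC4 (0.12, 0.0285), PSMC6 (0.17, 0.0111), PSMD1 (0.13, 0.0430), PSME4 (0.17, 0.0164) and PSMG1 (0.19, 0.00654), all higher, and PSMD13 (-0.23, 0.0497), which was lower. PSMD1 was called in the opposite direction, lower, with the most abundant transcript (-0.39, adjusted p = 0.0243), so its direction depended on the scale. The spread within groups was smaller on this scale in 26 of 43 genes, beside 52.9% of all genes. In 5 genes, PSMC4 and PSMD1 among them, the most abundant transcript was not annotated as protein coding, and the median share of FPKM in protein-coding transcripts was 78.3%.

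PSMB4, PSMB7 and PSME1 were called under every alternative run. With the most abundant transcript in place of the gene sum, the calls of PSMA5 (adjusted p = 0.0522), PSMB6 (0.321), PSMC3 (0.314), PSMD7 (0.340), PSMD8 (0.0958), PSMD12 (0.948), PSME3 (0.342) and PSMG4 (0.0791) were lost, each with its direction kept. Of these the log2 fold change was larger in size for PSMA5 (0.54), PSMC3 (-0.72), PSMD7 (0.84), PSMD8 (0.72) and PSME3 (2.04) and smaller for PSMB6 (-0.23), PSMD12 (0.02) and PSMG4 (0.18). With all genes tested and no filter, those of PSMA4 (0.0575), PSMA5 (0.0523), PSMD7 (0.132), PSMD8 (0.0506), PSMD11 (0.112), PSMD12 (0.110), PSME3 (0.138) and PSMG4 (0.147) were lost, with the log2 fold changes as before. With GC content and transcript length removed, PSMD5 (log2 fold change 0.17, adjusted p = 0.0718) and PSMD12 (0.0962, 0.342) were not called, while PSMA7 (0.21, 0.0388) and PSMC4 (0.19, 0.0198) were called higher, and with scaling to nuclear protein-coding genes PSMD8 (0.14, 0.0558), PSMD12 (0.22, 0.0631) and PSMG4 (0.20, 0.0865) were not.

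Genes that work with the proteasome were counted from lists, beside the same 16.4% of all genes called higher and 18.9% called lower. Of 13 proteasome-associated genes, 2 (15.4%) were called higher and 1 (7.69%) lower. In FPM 7 were called higher and 1 lower, beside the 19.5% and 22.1% of all genes on that scale. ZFAND2A, an arsenite-inducible protein that binds the proteasome under stress, rose from 11.1, 10.1 and 10.5 FPKM in NC to 16.8, 16.5 and 18.8 in OV-BRCA1 (log2 fold change 0.67, adjusted p = 0.00113, and 2.34 with an adjusted p of 0.0806 with the most abundant transcript). The deubiquitinase UCHL5 had 0.46 (adjusted p = 0.0192), and its call was lost without NC sample 1 (0.43, 0.0608) or NC sample 3 (0.45, 0.0583), with GC content and length removed (0.28, 0.0769) and without a filter (0.46, 0.118). SEM1, the small lid subunit that the naming rule does not reach, fell from 45.7, 51.2 and 52.0 to 38.8, 35.1 and 33.6 FPKM (log2 fold change -0.46, adjusted p = 0.00577), against the direction of the 4 lid genes called higher. The ubiquitin receptor ADRM1 was not called (0.15, adjusted p = 0.0522). It was called higher with GC content and length removed (0.31, 0.00260), with median-of-ratios scaling (0.19, 0.0225), in FPM (0.16, 0.0369), with at least 1 FPKM in every sample (0.0464) and with robust estimation (0.0492).

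Of 12 genes of the NFE2L1 list, which process or partner this factor, 2 (16.7%) were called higher and 3 (25.0%) lower, shares near those of all genes. DDI2, the protease that activates NFE2L1, rose (0.45, adjusted p = 0.00587), while the ubiquitin ligase SYVN1 (-0.56, adjusted p = 0.00118), the partner factor MAFK (-0.40, adjusted p = 0.00173) and the extraction ATPase VCP (-0.38, adjusted p = 0.00421) fell. With the most abundant transcript SYVN1 turned to 0.42 (adjusted p = 0.570) and VCP was not called (-0.24, 0.249). NFE2L1 itself, named after its values were seen, was at 39.5, 47.6 and 41.2 FPKM in OV-BRCA1 and 31.7, 14.1 and 35.7 in NC. Its groups did not overlap, but NC sample 2 was far below the other two and the value of 0.73 was not called (SE 0.33, adjusted p = 0.132). Without that sample it was 0.33 (adjusted p = 0.0677).

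Of 7 shuttle receptors, which carry ubiquitinated proteins to the proteasome or to autophagy, 3 (42.9%) were called higher and 2 (28.6%) lower. SQSTM1 rose from 450, 465 and 476 FPKM in NC to 619, 598 and 596 in OV-BRCA1 (0.38, adjusted p = 9.16e-04), UBQLN1 had 0.47 (adjusted p = 0.00130) and RAD23B 0.19 (adjusted p = 0.0164). The call of RAD23B was lost without NC sample 3 (0.0529) or OV-BRCA1 sample 3 (0.0502) and with GC content and length removed (0.0741, 0.210), and with the most abundant transcript its value turned to -0.69 (0.695). NBR1 had -0.26 (adjusted p = 0.0161, and 0.0520 without NC sample 2). Among ubiquitin and ubiquitin-activating enzyme genes, the enzyme gene UBA6 was called higher (0.51, adjusted p = 0.00535). The ubiquitin gene UBB was called lower (-0.14, adjusted p = 0.0383), and its call was lost whichever of the 6 samples was left out (adjusted p = 0.0506 to 0.110). The enzyme gene UBA1 was not called (-0.10, adjusted p = 0.133).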

How the data were processed

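Total RNA of SiHa cells was sequenced as mRNA in 6 libraries, described in the study's methods as 3 biological replicates per group, and groups and replicate numbers followed the labels. FPKM values for 199167 transcripts of 58174 genes were deposited by the authors. The submitters' processing notes name FastQC, HISAT2 and hg38. The tool that made the FPKM, its annotation and its use of strand are not given in the sources used here. The table of the whole series held the same values as the sample files, and 0 of its columns were left unmatched. Of the transcripts, 198868 were found in GENCODE release 29, 98.7% of them at the same position, and 338 genes had no symbol.

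FPKM were summed per gene. The test was limma's moderated test on log2(FPKM + 1), with a mean-variance trend and no robust step, for genes with at least 0.5 FPKM in at least 3 samples, with Benjamini-Hochberg adjustment over 16321 genes. The authors tested counts with DESeq, which FPKM do not allow. Whole fragments could not be recovered, since 34.8% to 39.8% of low values came within 0.1 of a whole number. The script was tested on simulated data. The genes and lists were chosen with earlier results of these data known. Values per sample are given for the catalytic subunits, activators, inhibitor and core chaperones, for PSMC3IP and genes removed by the filter, for up to 4 genes with the smallest adjusted p-values and the gene with the largest in each other group, and for BRCA1 and the inducible genes. From each list of associated genes up to 4 were named. Some genes covered by these rules are not reported here. Pseudogenes of proteasome genes numbered 32, of which PSMC1P1 (2.47 FPKM) and PSME2P2 (1.03) had a mean of at least 1.

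The alternatives were a pseudocount of 0.1, no filter, at least 1 FPKM in every sample, scaling by the median of ratios or to nuclear protein-coding genes, robust estimation, a block for the replicate number, leaving out each sample, the most abundant transcript, and GC content and length removed with loess (span 0.5). Fragments per 1000000 mapped fragments were added after the values had been seen. R 4.3.3, limma 3.58.1, Python 3.11.15, numpy 2.4.6, pandas 2.3.3 and matplotlib 3.10.9 were used.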

Additional observations from a re-analysis of the deposited data

How the results depend on the processing

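The log2 ratios of the 4 pairs kept their direction under every alternative run for them, although that of PSME2/PSME1 was 0.47 in place of 0.17 and that of PSMB10/PSMB7 0.38 in place of 0.56 with the most abundant transcript. The count of genes called higher, 11, fell to 5 with the most abundant transcript. There 10.8% and 10.3% of all genes were called higher and lower, in place of 16.4% and 18.9%. It fell to 4 of 45 genes without a filter, where 3.15% and 2.98% of all 58174 genes were called higher and lower. It was 6 to 10 with a sample left out, 6 without NC sample 2, while 12.9% to 13.6% of all genes were called higher. The count called lower, 3, was 3 to 5 with a sample left out, 5 without OV-BRCA1 sample 2, while 14.0% to 15.6% of all genes were called lower. The median log2 fold change of 0.14 was 0.0936 with GC content and length removed, 0.18 with median-of-ratios scaling (16 genes higher, beside 18.1% of all genes), 0.10 with scaling to nuclear protein-coding genes (8 higher, beside 14.5%) and 0.10 to 0.15 with a sample left out. Of 1056 single-gene values, 928 kept direction and call, 73 lost the call, 31 gained it and 24 changed sign, none of these 24 past the threshold except PSMD1 in FPM. The sign changed with the most abundant transcript for PSMB5 (-0.0707), PSMC1 (0.21), PSMC4 (-0.0068), PSMD2 (-0.65), PSMD3 (0.0249), PSMD10 (0.113), PSMG2 (-0.0567), PSMG3 (-0.0834), SYVN1 (0.42) and RAD23B (-0.69), of which SYVN1 and RAD23B were called in the opposite direction at gene level. It changed with GC content and length removed for PSMB3 (0.0138), PSMC6 (-0.0531) and PSMD3 (0.0686), with scaling to nuclear genes for PSMB5 (-0.0126) and GAPDH (-0.0075), with median-of-ratios scaling for PSMD3 (0.0201) and in FPM for PSMD1 (0.13). With a sample left out, the values ran from -0.0755 (without OV-BRCA1 sample 1) to 0.351 for PSMA1, from -0.115 to 0.0032 (without NC sample 3) for PSMB3, from -0.203 (without OV-BRCA1 sample 1, and -0.0415 without NC sample 3) to 0.250 for PSMB5, from -0.0473 to 0.0030 (without OV-BRCA1 sample 1) for PSMD3, from -0.0209 (without NC sample 1) to 0.183 for PSMD6 and from -0.0522 (without NC sample 2) to 0.168 for PSMG3. The causes were not tested.

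With the replicate number as a block, 8 genes were called higher and 5 lower, beside 13.2% and 14.9% of all genes. Samples with the same number did not deviate together (r = -0.0244, 0.0250 and 0.0136 for numbers 1, 2 and 3), and the block was not used in the main test. These values cannot show whether samples with the same number were handled together.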
